A study of Sus scrofa with 6 samples.

Results

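SERPINH1 and 9 collagen-modifying enzymes were followed in cultured granulosa cells of the pig (Sus scrofa), which line the ovarian follicle and nourish its oocyte. The 10 genes were chosen by function and matched by symbol to 1 Ensembl identifier each, among 35670 identifiers in the count table. They are the collagen chaperone SERPINH1 (also called HSP47), the prolyl hydroxylase subunits P4HA1, P4HA2 and P4HA3, the lysyl hydroxylases PLOD1, PLOD2 and PLOD3, and the lysyl oxidases LOX, LOXL1 and LOXL2. Heat libraries (n = 3) came from cells held at 42 °C over 6 h, control libraries (n = 3) from cells that stayed at 37 °C over that period. Both groups were primary cultures of cells aspirated from small healthy follicles and expanded in medium with serum, and the labels name no genetic change and no other agent. The labels number the libraries of a group as biological replicates without naming animals or cultures, so p-values measure only the spread between these samples, which may be technical. RNA was measured by stranded mRNA sequencing.

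Collagen is built in the endoplasmic reticulum, the compartment where secreted proteins fold. Prolyl hydroxylases modify the new chains so that the triple helix is stable, lysyl hydroxylases modify lysines that later carry sugars and cross-links, and SERPINH1 binds the folded helix until it leaves the compartment. Lysyl oxidases act outside the cell and join collagen and elastin molecules by oxidising their lysines. SERPINH1 is a known target of the heat shock response, and several of the hydroxylases and LOX are known targets of the response to low oxygen. In the follicle, collagens form the basal lamina beneath the granulosa cells and the stiffer matrix of the theca and stroma around them.

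The libraries held between 18711440 and 29606378 counts. Heat 1 and heat 2 were alike (Pearson correlation of log2 CPM across genes, 0.991), as were control 2 and control 3 (0.990). Heat 3 and control 1 stood apart from the other libraries of their groups. By this correlation they were most like each other (0.920), by a small margin over heat 3 with heat 1 (0.916). By chi-square per degree of freedom of the counts, heat 3 was closer to heat 1, and control 1 to heat 2. Genes are not independent replicates, so these correlations only describe likeness. Of the defining granulosa cell markers, FSHR lay at or below 2.14 CPM and AMH and INHA at or below 0.306 CPM in every library, while GATA4 lay between 9.56 and 82.1 CPM. FOXL2 and CYP19A1, which matched no symbol, were not analysed here. The 13 matched granulosa cell markers summed to between 927 and 1213 CPM in heat and between 533 and 1509 CPM in control. CDH2, INHBA and KITLG carried this sum. CDH2 alone had between 341 and 693 CPM in heat and between 210 and 850 CPM in control. Across the 14242 genes tested, edgeR called 6.71% higher and 4.32% lower in heat (956 and 615 genes). With counts scaled by library totals only, 1583 were higher and 416 lower. Leaving out control 2 or control 3, edgeR called 0 genes at all, with 3165 and 3303 at an unadjusted p under 0.05, while DESeq2 called 1305 and 1543.

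SERPINH1 rose in heat. It had 5468, 4995 and 1409 CPM in heat 1, 2 and 3, against 773, 132 and 169 CPM in control 1, 2 and 3, where CPM stands for counts brought to a common library size with TMM factors. Every heat library lay above every control, but heat 3 was 3.88 times below heat 1 and control 1 was 5.84 times above control 2. The group means were 3957 ± 2219 CPM in heat and 358 ± 359.6 CPM in control (SD, n = 3 each). On the log2 scale the difference, heat minus control, came to 3.47 ± 0.90 (SE), which is 11.05-fold, with a 95% interval of 1.39 to 5.54 on the log2 scale (edgeR quasi-likelihood test, adjusted p = 0.0485). The call lay close to the threshold of 0.05. In edgeR it was lost without heat 1, heat 2, control 2 or control 3, with adjusted p-values of 0.164, 0.157, 0.175 and 0.166. It held in edgeR without heat 3 (log2 fold change 3.85) and without control 1 (4.69). Without control 2 or control 3, edgeR called no gene of any kind. DESeq2 kept the call of SERPINH1 whichever library was left out. In a bulk sample, more cells that express a gene and more of its RNA per cell cannot be told apart. SERPINH1 lies on chromosome 9 at 9782939 to 9794485 (Sscrofa11.1, RefSeq), and it overlaps a long noncoding RNA gene, so the division of reads between them is uncertain.

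**Figure D1:**
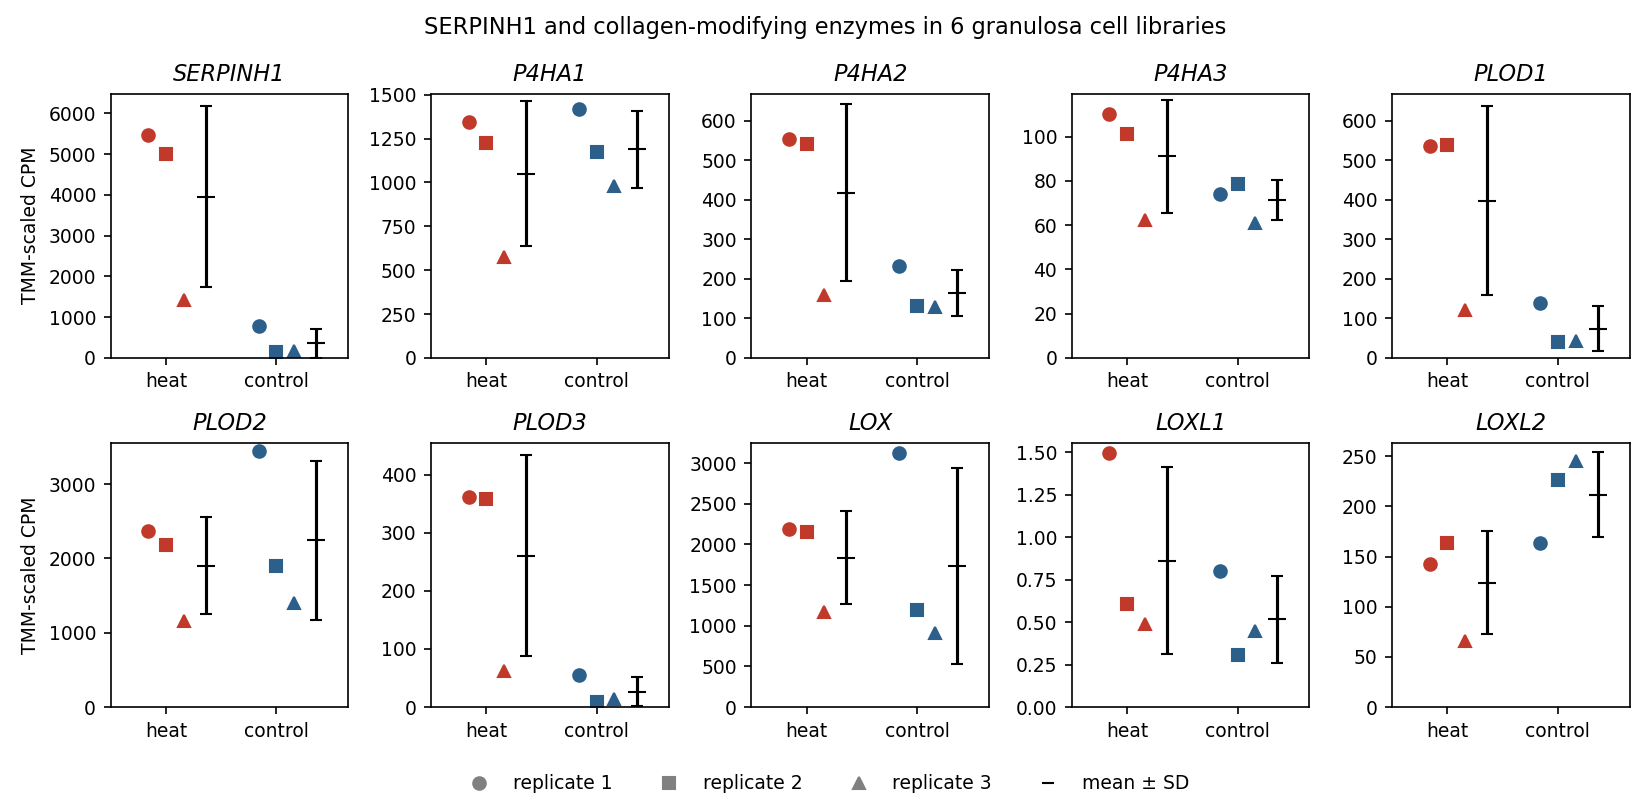
TMM-scaled CPM of the 10 genes in each library, with heat in red and control in blue, the replicate number as the marker shape and the mean ± SD (n = 3) as a black bar. Heat 1 and 2 lie close together for nearly every gene, heat 3 lies below them, and SERPINH1 is at 5468, 4995 and 1409 CPM in heat against 773, 132 and 169 CPM in control.

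Of the 10 genes, SERPINH1 was the only one that passed the edgeR test (6.71% of all tested genes were called higher). None was called lower, by edgeR or DESeq2 (12.6% of all tested genes in DESeq2), and none of the 10 had an unadjusted p under 0.05 in that direction in the edgeR fit. SERPINH1, PLOD3, PLOD1 and P4HA2 had an unadjusted p under 0.05 with a positive fold change. Every heat library lay above every control for SERPINH1 and PLOD3, as for 20.9% of all tested genes, and below every control for LOXL2, as for 16.8%. DESeq2, another count model, called SERPINH1, PLOD1 and PLOD3 higher, against 14.9% of all tested genes. The median log2 fold change of the 10 genes was 0.55 and that of all tested genes 0.05. All 10 genes passed the filter on low counts.

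The 3 lysyl hydroxylases differed in their fold changes. PLOD3, which in addition to hydroxylating lysines attaches sugars to them, had 362, 359 and 61.5 CPM in heat 1, 2 and 3, against 55.5, 9.30 and 14.2 CPM in control 1, 2 and 3. The groups did not overlap, but heat 3 lay just above control 1. The log2 fold change of PLOD3 was 3.31 ± 0.90 (SE), and it missed the threshold in edgeR (adjusted p = 0.0543) but not in DESeq2 (adjusted p = 6.14e-04). In edgeR it passed without heat 3 (log2 fold change 3.75) and without control 1 (4.45), fits that called 18.4% and 19.6% of all genes tested in them higher. PLOD1, which acts mainly on lysines within the helix, had 536, 538 and 121 CPM in heat 1, 2 and 3, against 139, 39.1 and 43.1 CPM in control 1, 2 and 3. Its heat 3 value lay below control 1, so the groups overlapped. The log2 fold change of PLOD1 was 2.43 ± 0.73 (edgeR adjusted p = 0.0666, DESeq2 adjusted p = 0.00459), and PLOD1 too passed in edgeR without heat 3 (2.84) and without control 1 (3.25).

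PLOD2, which hydroxylates the lysines of the chain ends that form the most stable cross-links, had 2362, 2183 and 1155 CPM in heat 1, 2 and 3, against 3441, 1892 and 1396 CPM in control 1, 2 and 3. The highest value was that of control 1 and the lowest that of heat 3. Its log2 fold change was -0.24, with a 95% interval of -1.45 to 0.97 (edgeR adjusted p = 0.764). PLOD3 overlaps ZNHIT1 on chromosome 3. By the RefSeq annotation P4HA2 likewise overlaps PDLIM4 and SLC22A4, P4HA1 overlaps NUDT13, LOX lies within LOC100525452, and LOXL1 overlaps a long noncoding RNA gene, so for all of these the division of reads is uncertain. ZNHIT1 had 12.5, 13.8 and 14.5 CPM in heat 1, 2 and 3, against 2.54, 7.77 and 10.1 CPM in control 1, 2 and 3.

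Among the catalytic subunits of prolyl 4-hydroxylase, none passed the edgeR test. P4HA2 had 554, 541 and 159.5 CPM in heat 1, 2 and 3, against 232, 131 and 129.9 CPM in control 1, 2 and 3. Heat 1 and heat 2 lay above all controls and heat 3 lay below control 1. Its log2 fold change was 1.35 ± 0.54 (SE), with a 95% interval of 0.098 to 2.60 (edgeR adjusted p = 0.125), and it passed without heat 3 (log2 fold change 1.72). P4HA1, the main subunit in most cell types, had 1347, 1224 and 577 CPM in heat 1, 2 and 3, against 1417, 1174 and 977 CPM in control 1, 2 and 3. Its groups overlapped, and the log2 fold change of -0.18 had a 95% interval of -1.23 to 0.87 (edgeR adjusted p = 0.798). P4HA3, the subunit described last, had 110, 101 and 62.1 CPM in heat 1, 2 and 3, against 74.0, 78.7 and 61.2 CPM in control 1, 2 and 3. The log2 fold change of P4HA3 was 0.35 (95% interval -0.39 to 1.10, edgeR adjusted p = 0.457).

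The lysyl oxidases did not pass either. LOX, the founding member of the family, had 2193, 2149 and 1173 CPM in heat 1, 2 and 3, against 3122, 1190 and 909.5 CPM in control 1, 2 and 3. Control 1 was the highest of the 6 libraries, and the log2 fold change of 0.08 had a 95% interval of -1.27 to 1.43 (edgeR adjusted p = 0.935). The log2 fold change of LOX was 0.79 without control 1 and 0.30 without heat 3, and lay between -0.26 and -0.04 without any 1 of the other 4 libraries. LOXL2, which acts on the type IV collagen of basement membranes, had 143, 163.5 and 65.7 CPM in heat 1, 2 and 3, against 164.05, 226 and 245 CPM in control 1, 2 and 3. It was the only one of the 10 genes with every heat library below every control, but heat 2 and control 1 differed by less than 1 CPM. Its log2 fold change was -0.77 ± 0.41 (SE), with a 95% interval of -1.73 to 0.19 (edgeR adjusted p = 0.222). LOXL1, which is linked to elastic fibres, had 30, 13 and 16 reads in heat 1, 2 and 3, against 12, 7 and 9 reads in control 1, 2 and 3. At this depth its log2 fold change of 0.74 had a 95% interval of -0.74 to 2.22 (edgeR adjusted p = 0.429).

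**Figure D2:**
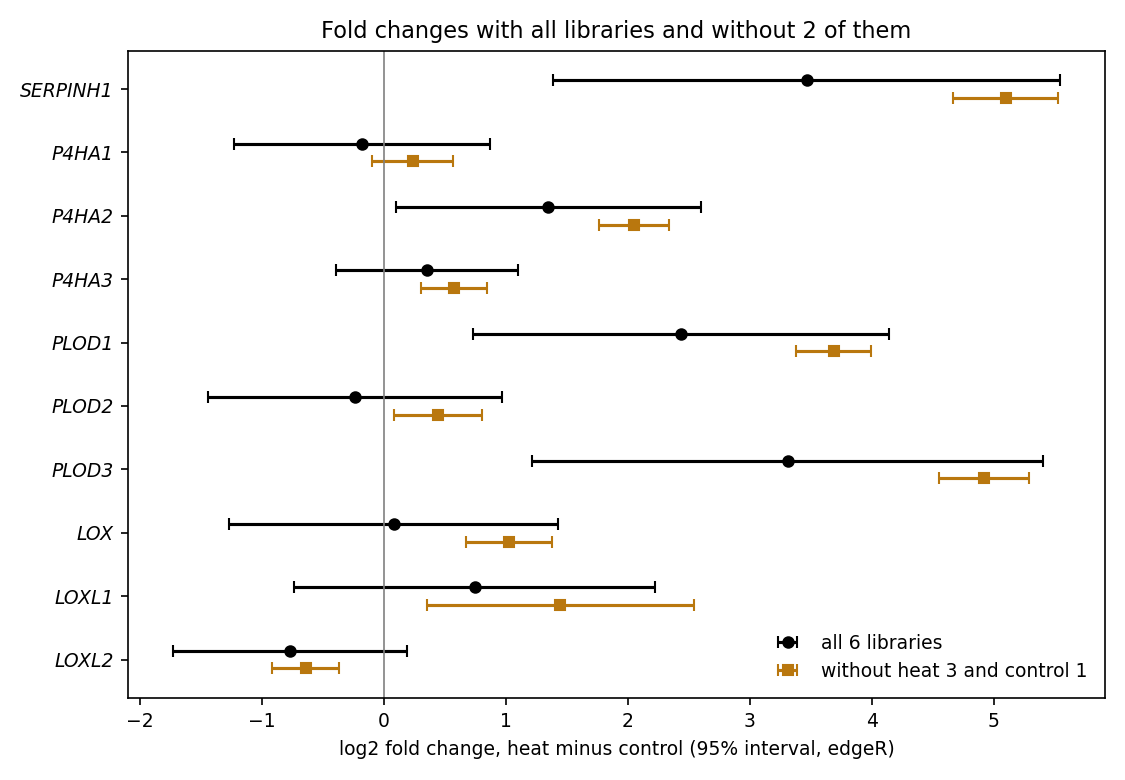
Log2 fold change, heat minus control, of each gene with its 95% interval from edgeR, for all 6 libraries (black circles) and without heat 3 and control 1 (orange squares). SERPINH1 is at 3.47 with all libraries and at 5.09 without those libraries, and the intervals of P4HA1 include 0 in both fits.

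Because heat 3 and control 1 stood apart, each value was also computed without them. In heat 1 and 2 against control 2 and 3, the log2 fold changes were 5.09 for SERPINH1, 4.92 for PLOD3, 3.69 for PLOD1 and 2.05 for P4HA2. LOXL1 was at 1.45, LOX at 1.03, P4HA3 at 0.57, PLOD2 at 0.45 and LOXL2 at -0.64. The test called 8 of the 10 genes higher and 1 lower in that fit, against 41.2% and 38.4% of all 15251 genes it tested, so most genes of any kind were called between these near-identical pairs. P4HA1 was not called (log2 fold change 0.24, edgeR adjusted p = 0.178). Heat 3 alone stood at 1.82 times the level of control 1 for SERPINH1, 1.11 times for PLOD3 and 0.873 times for PLOD1. For each of the other 7 genes the level of heat 3 was between 0.336 and 0.839 times that of control 1. These last ratios compare 1 library with 1 library and have no replicate check.

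Counts of 2 genes within a library form a ratio that no scaling factor can move. For 100 reads of the type I collagen chains COL1A1 and COL1A2, clients of SERPINH1, there were 8.77, 9.04 and 6.98 reads of SERPINH1 in heat 1, 2 and 3, against 1.78, 4.29 and 5.42 reads in control 1, 2 and 3. The groups did not overlap, and control 1, which had the most type I collagen reads of the controls, had the lowest ratio. The ratio was 2.37 times higher in heat (log2 difference 1.25, two-sided exact permutation test, p = 0.1, the smallest that 3 against 3 samples allow). For 100 reads of the other 9 genes there were 71.9, 68.8 and 41.7 reads of SERPINH1 in heat 1, 2 and 3, against 8.94, 2.79 and 4.48 reads in control 1, 2 and 3. That ratio was 12.3 times higher in heat (log2 difference 3.62, exact permutation p = 0.1), and the lowest heat library was above the highest control.

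Ratios between members of 1 enzyme family were computed in the same way and were chosen after their values were seen. For 100 reads of PLOD2 there were 38.03, 41.1 and 15.8 reads of PLOD1 plus PLOD3 in heat 1, 2 and 3, against 5.65, 2.56 and 4.11 reads in control 1, 2 and 3. For 100 reads of P4HA1 there were 41.1, 44.2 and 27.7 reads of P4HA2 in heat 1, 2 and 3, against 16.4, 11.15 and 13.3 reads in control 1, 2 and 3. In both families the heat libraries lay above all controls, heat 3 and control 1 included. The log2 differences were 2.90 and 1.46, each with an exact permutation p of 0.1. For 100 reads of LOX there were 6.51, 7.61 and 5.60 reads of LOXL2 in heat 1, 2 and 3, against 5.25, 19.0 and 27.0 reads in control 1, 2 and 3. Here control 1 lay just below the heat libraries and the other controls above them (log2 difference -1.09, exact permutation p = 0.4). Adjusted over the 5 ratios by the Benjamini-Hochberg method, the exact p-values were 0.125 for 4 of them and 0.4 for LOXL2 per LOX. A ratio of reads depends on transcript length as well, so it compares libraries and not the amounts of the 2 genes.

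**Figure D3:**
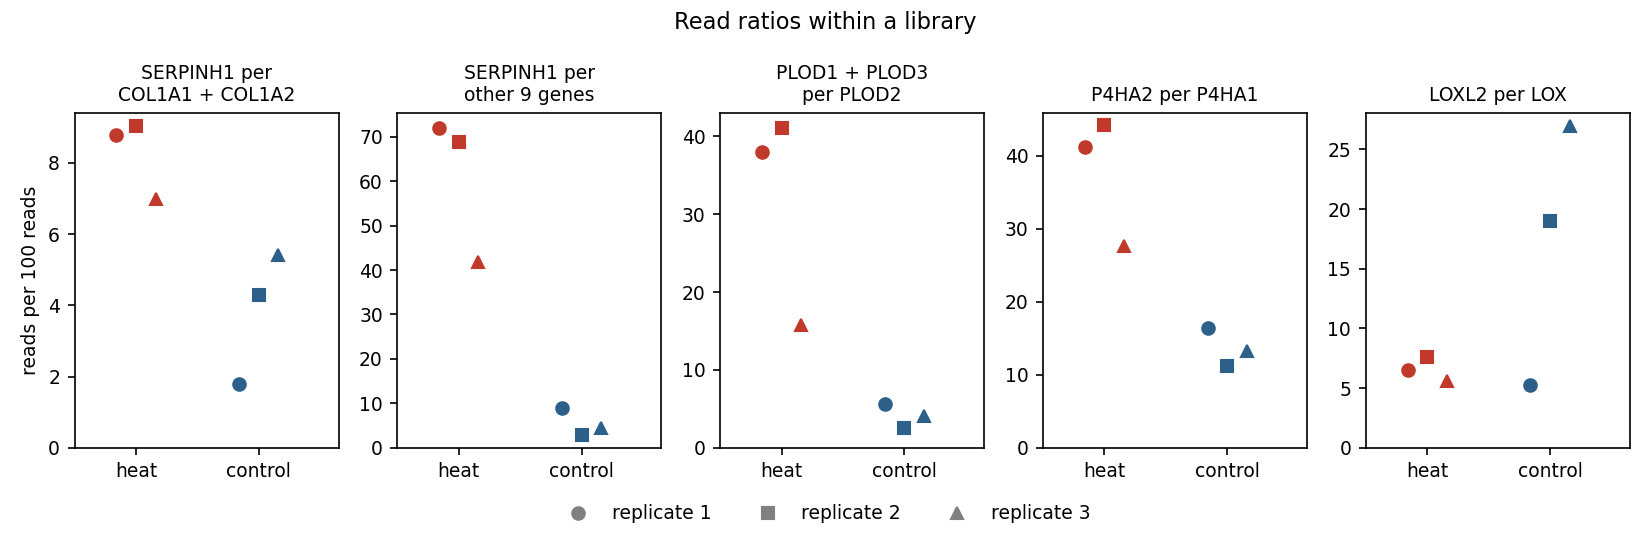
Reads per 100 reads within each library for 5 ratios, with heat in red and control in blue and the replicate number as the marker shape. The groups do not overlap for the first 4 ratios, while for LOXL2 per LOX control 1 (5.25) lies below all 3 heat libraries.

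The 10 genes did not share 1 pattern over the 6 libraries, although heat 3 was the lowest heat library for all of them. Pearson correlations of log2 CPM with SERPINH1 were 0.991 for PLOD3, 0.981 for PLOD1 and 0.908 for P4HA2, but 0.267 for PLOD2, 0.112 for P4HA1 and -0.515 for LOXL2. P4HA1 and PLOD2 were more like each other (0.883), and PLOD2 and LOX likewise (0.899). These values describe 6 libraries, of which 2 pairs are nearly the same, and carry no test. Among 9749 other tested genes with a symbol and a mean of at least 1 log2 CPM, the 5 most like SERPINH1 were CHPF, which builds chondroitin chains, QSOX2, a sulfhydryl oxidase, SCRIB, a cell polarity scaffold, AXL, a receptor tyrosine kinase, and BAIAP2, a regulator of actin. Their correlations lay between 0.9989 and 0.9994. All but AXL were called higher in heat by edgeR. CHPF, for instance, had 25.9, 23.3 and 12.3 CPM in heat 1, 2 and 3, against 8.21, 2.88 and 3.27 CPM in control 1, 2 and 3.

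Heat shock genes whose products work outside the endoplasmic reticulum had another order within the heat group than SERPINH1. The test called 9 of these 15 genes, all of them higher (6.71% over all genes), with a median log2 fold change of 2.92. The list is cytosolic apart from the mitochondrial chaperonins HSPD1 and HSPE1, which were not called (log2 fold changes 0.08 and 0.37). HSPA6, a strictly inducible HSP70, had 156, 149 and 501 CPM in heat 1, 2 and 3, against 0.267, 0.873 and 0.347 CPM in control 1, 2 and 3. HSP70.2, another inducible HSP70, had 5896, 5773 and 4823 CPM in heat 1, 2 and 3, against 130, 115 and 141 CPM in control 1, 2 and 3. The co-chaperone BAG3 had 428, 424 and 655 CPM in heat 1, 2 and 3, against 48.8, 13.4 and 16.3 CPM in control 1, 2 and 3. Heat 3, the lowest heat library for SERPINH1, was the highest for every gene of this list but HSP70.2, HSP90AA1 and DNAJA4.

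Among chaperones of the endoplasmic reticulum, where SERPINH1 resides, heat 3 was the lowest heat library for all but SDF2L1. The test called 4 of these 14 genes, all of them higher (6.71% over all genes), with a median log2 fold change of 1.23. HSPA5, the central chaperone of the compartment, had 14496, 13400 and 3118 CPM in heat 1, 2 and 3, against 1523, 886 and 722 CPM in control 1, 2 and 3. HERPUD1, which acts in the disposal of misfolded proteins, had 737, 805 and 364 CPM in heat 1, 2 and 3, against 116, 97.4 and 93.96 CPM in control 1, 2 and 3. CRELD2, a stress-induced protein of the compartment, had 38.5, 43.1 and 12.9 CPM in heat 1, 2 and 3, against 10.1, 5.02 and 3.67 CPM in control 1, 2 and 3. The fourth gene that rose was PDIA4, a disulfide isomerase (edgeR adjusted p = 0.0484). Without heat 1 or heat 2, edgeR called 3 of the 15 heat shock genes and 0 of the 14 chaperones of the reticulum. It called 0 of both lists without control 2 or control 3, where it called no gene of any kind. DESeq2 called 9 of the 15 and 6 of the 14 without heat 1, and 10 and 6 without heat 2. The shares over all genes in the fits without heat 1 or heat 2 are not given here, so these counts have no background.

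**Figure D4:**
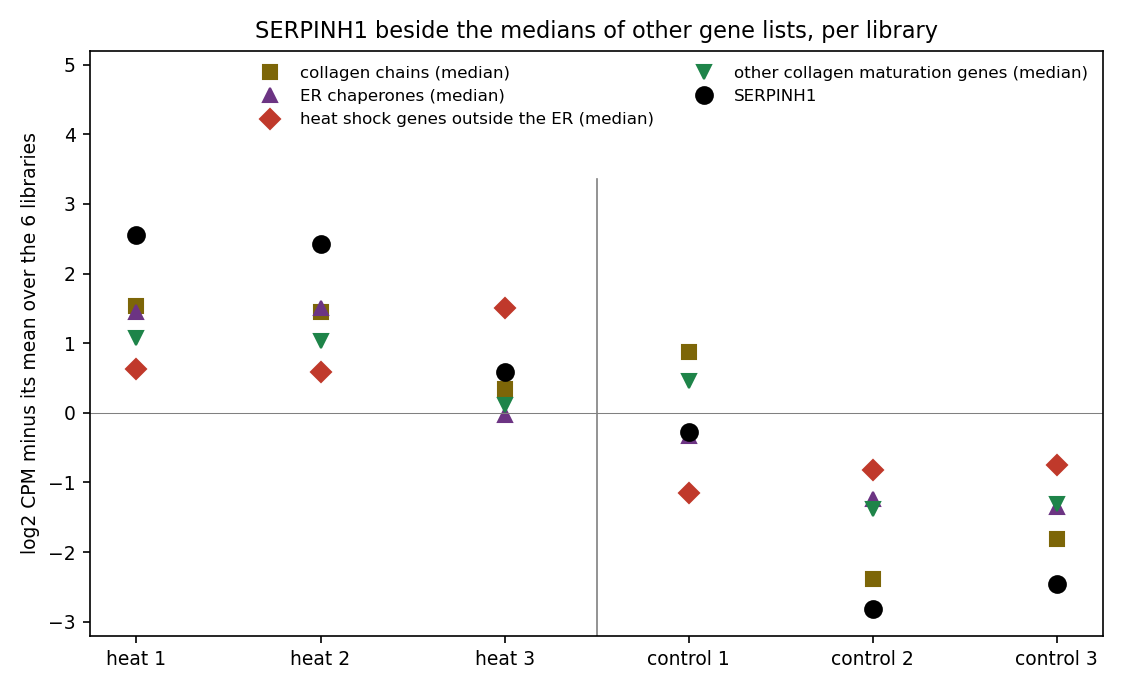
SERPINH1 (black circles) beside the medians of 4 gene lists in each library, as log2 CPM minus the mean over the 6 libraries. SERPINH1 is at 2.55 in heat 1 and 0.59 in heat 3, where the heat shock genes outside the endoplasmic reticulum (ER) have their highest median, while in control 1 SERPINH1 is at -0.27 and the collagen chains are at 0.87.

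Collagen chains, the substrates of these enzymes, were measured beside them. COL6A1 and COL6A2 rose, and the other 10 of 12 tested chains were not called. The median log2 fold change of all 12 was 1.78. Over all tested genes, 6.71% were called higher. DESeq2 called 6 of the 12 higher, against 14.9% of all tested genes. Without control 1, edgeR called 11 of 13 higher (19.6% over all genes) with a median of 3.47. Without heat 3 it called 5 of 13 (18.4% over all genes). It called 0 of them without any 1 of the other 4 libraries, and no gene of any kind without control 2 or control 3. DESeq2 called 3 of 12 higher without heat 1, and likewise without heat 2. The shares over all genes in the fits without heat 1 or heat 2 are not given here, so those counts have no background. COL6A2, a chain of the microfibrillar type VI collagen, had 9.03, 4.88 and 2.23 CPM in heat 1, 2 and 3, against 1.00, 0.437 and 0.793 CPM in control 1, 2 and 3. COL6A1, its partner chain, had 28.7, 20.4 and 9.63 CPM in heat 1, 2 and 3, against 4.01, 2.49 and 3.57 CPM in control 1, 2 and 3. COL1A1 had 20725, 17944 and 5579 CPM in heat 1, 2 and 3, against 17714, 270.1 and 387 CPM in control 1, 2 and 3. COL1A2 had 41605, 37308 and 14618 CPM in heat 1, 2 and 3, against 25719, 2817 and 2737 CPM in control 1, 2 and 3. Control 1 lay above heat 3 for both type I chains but below it for SERPINH1. The correlation of log2 CPM with COL1A2 over the 6 libraries was 0.943 for SERPINH1, 0.942 for PLOD1 and 0.939 for PLOD3, against 0.257 for P4HA1 and -0.478 for LOXL2.

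Stromal cells make much of the collagen of the ovary, and their markers did not move as 1 group. The 11 matched stromal markers of 12 summed to 1196, 1169 and 407 CPM in heat 1, 2 and 3, against 917, 209 and 182 CPM in control 1, 2 and 3. PDGFRA, a receptor of stromal cells, had 891, 856 and 248 CPM in heat 1, 2 and 3, against 417, 92.8 and 81.4 CPM in control 1, 2 and 3. DPT had no reads in any control or in heat 2. The sum was carried by PDGFRA and LUM, while the median of the list, as log2 CPM minus its mean over the libraries, was at 0.01, -0.08 and -0.26 in heat 1, 2 and 3, against 0.40, -0.08 and 0.01 in control 1, 2 and 3. That median is the level of the middle gene, which changed from library to library, so it does not follow each marker. Of the 9 tested, 7 had a positive log2 fold change (7416 of all 14242), with a median of 0.35. FAP fell, with 13.0, 12.2 and 6.23 CPM in heat 1, 2 and 3, against 19.6, 52.8 and 42.9 CPM in control 1, 2 and 3. The other 8 stromal markers tested were not called by edgeR. DESeq2 called 1 of the 9 higher and 1 lower (14.9% and 12.6% over all genes). The part of stromal cells in the fold changes of SERPINH1 and the enzymes was not tested. The 6 smooth muscle markers summed to between 6743 and 14821 CPM in heat and between 10059 and 10341 CPM in control. The 7 theca markers summed to between 28.4 and 79.1 CPM in heat and between 6.38 and 26.7 CPM in control. NR2F2 and PTCH1 carried this theca sum. NR2F2 had 48.9, 46.1 and 21.5 CPM in heat 1, 2 and 3, against 16.2, 3.93 and 4.41 CPM in control 1, 2 and 3. PTCH1 had 29.1, 27.4 and 5.75 CPM in heat 1, 2 and 3, against 10.0, 1.53 and 1.64 CPM in control 1, 2 and 3. Of the other theca markers INSL3 was at 0 in every library, CYP17A1 was at 0 in heat 2 and every control, and LHCGR was at or below 0.183 CPM. None of the theca or smooth muscle markers tested was called by edgeR over all 6 libraries. DESeq2 called 2 of the 3 theca markers tested higher (14.9% over all genes) and 0 of the 6 smooth muscle markers.

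Markers of epithelial cells and leukocytes also differed between libraries. The 6 matched epithelial markers summed to 71.0, 109 and 20.6 CPM in heat 1, 2 and 3, against 22.5, 3.93 and 6.45 CPM in control 1, 2 and 3. The sum was highest in heat 1 and heat 2, as was SERPINH1, but heat 3 lay just below control 1. Of these KRT8 and UPK3B rose, KRT7 was not called by edgeR, and EPCAM was at 0 in every library. DESeq2 called all 3 epithelial markers tested higher (14.9% over all genes). The 7 leukocyte markers summed to 4.34, 2.65 and 1.31 CPM in heat 1, 2 and 3, against 3.34, 31.2 and 63.6 CPM in control 1, 2 and 3. LYZ, an enzyme of myeloid cells, fell, at 0.848, 0.186 and 0.245 CPM in heat 1, 2 and 3, against 0.467, 26.3 and 54.1 CPM in control 1, 2 and 3, so control 1 lay among the heat libraries. PTPRC, the defining leukocyte marker, was at 0 in the heat libraries and control 1, and CD3E at 0 in every library. The part of these cells in the fold changes of SERPINH1 and the enzymes was not tested.

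The other genes of collagen maturation lay mostly above 0 in their fold changes, and how many were called depended on the libraries and the tool. Of 28 listed, 27 matched a symbol and 26 were tested, of which edgeR called P3H3 higher and no other gene (6.71% over all genes). DESeq2 called 8 higher and 1 lower (14.9% and 12.6% over all genes). Without control 1, edgeR called 16 higher and 1 lower (19.6% and 12.3% over all genes) with a median log2 fold change of 1.88. Without heat 3 it called 6 higher and 1 lower (18.4% of all genes were called higher). It called 0 of them without any 1 of the other 4 libraries, and no gene of any kind without control 2 or control 3. DESeq2 called 1 of 26 higher without heat 1, and likewise without heat 2. The shares over all genes in the fits without heat 1 or heat 2 are not given here, so those counts have no background. The median log2 fold change was 1.12, against 0.05 for all tested genes, and 22 of the 26 were positive. P3H3, a prolyl 3-hydroxylase relative that in the mouse works in a complex with PLOD1, had 59.5, 50.9 and 19.0 CPM in heat 1, 2 and 3, against 13.8, 8.56 and 8.53 CPM in control 1, 2 and 3. Its log2 fold change was 2.07 ± 0.48 (SE, edgeR adjusted p = 0.0412). P4HB, the subunit that pairs with every P4HA protein, had 1075, 990 and 346 CPM in heat 1, 2 and 3, against 286, 198 and 210 CPM in control 1, 2 and 3. Every heat library lay above every control for P4HB, and it did not pass (log2 fold change 1.80, edgeR adjusted p = 0.0571).

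FKBP10, a proline isomerase that acts on collagen, had 759, 679.8 and 295 CPM in heat 1, 2 and 3, against 272, 115 and 139 CPM in control 1, 2 and 3. It missed the threshold (edgeR adjusted p = 0.0666). PPIB, the proline isomerase cyclophilin B, had 246, 218 and 186 CPM in heat 1, 2 and 3, against 207, 215 and 203 CPM in control 1, 2 and 3. Its values differed little between libraries, with a log2 fold change of 0.06 (95% interval -0.64 to 0.75). ADAMTS3, which trims the ends of procollagen, was the only gene of this list with every heat library below every control, at 0.499, 0.232 and 0.306 CPM in heat 1, 2 and 3 against 0.935, 1.35 and 1.24 CPM in control 1, 2 and 3 (edgeR adjusted p = 0.0574).

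**Figure D5:**
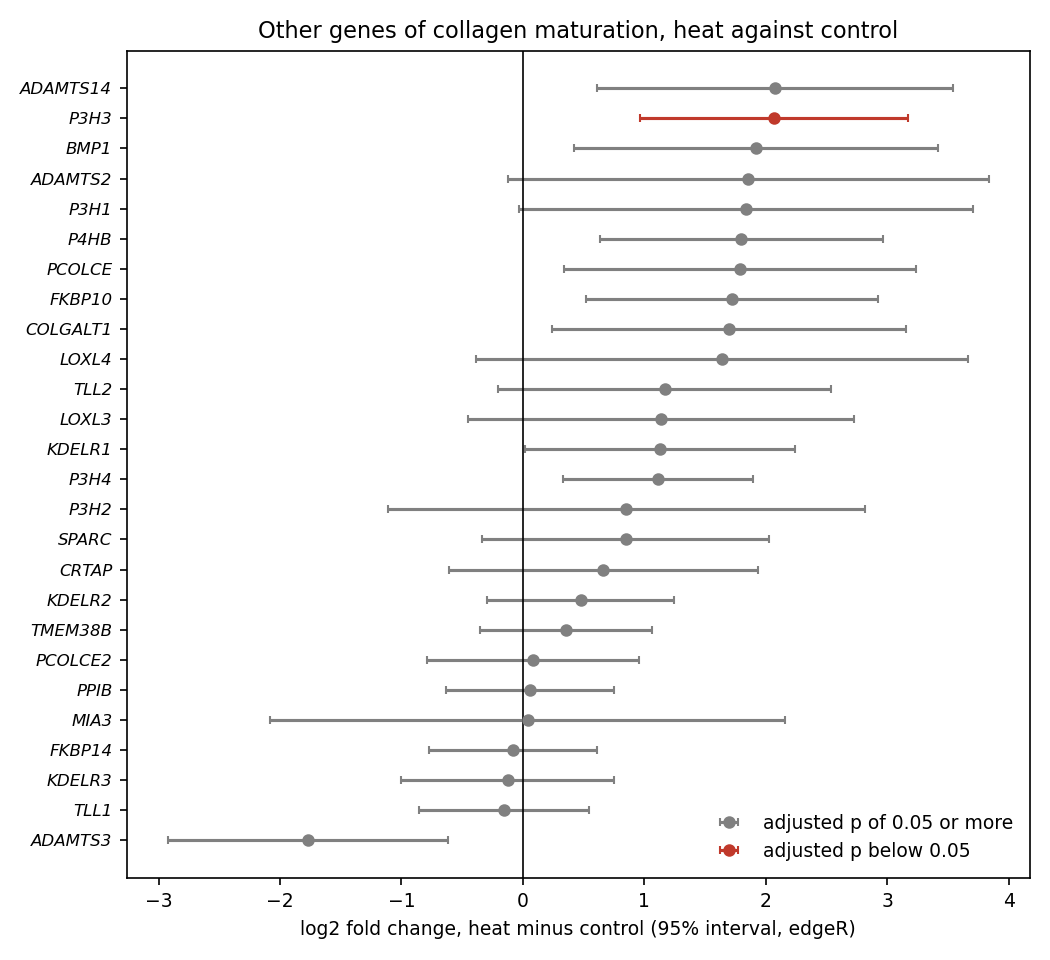
Log2 fold change, heat minus control, of 26 other genes of collagen maturation with 95% intervals from edgeR over all 6 libraries. P3H3 (red) is the only gene that passed, at 2.07, and ADAMTS3 is the lowest, at -1.77.

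Elastic fibres hold elastin, which LOX and LOXL1 cross-link, together with other proteins. Of 6 elastic fibre genes tested, 3 rose, while 6.71% of all tested genes were called higher. DESeq2 likewise called 3 of the 6 (14.9% over all genes). In edgeR it was 2 with DESeq2 size factors, and 1 of 4 tested with a filter of 10 CPM in 3 libraries. EdgeR called 0 of them without heat 1, heat 2, control 2 or control 3, and no gene of any kind without control 2 or control 3. EFEMP2, a fibulin that binds LOX, had 94.7, 94.8 and 46.8 CPM in heat 1, 2 and 3, against 28.0, 13.2 and 13.6 CPM in control 1, 2 and 3 (log2 fold change 2.11, edgeR adjusted p = 0.0375). LTBP4, a microfibril protein, had 8.78, 9.76 and 1.44 CPM in heat 1, 2 and 3, against 1.00, 0.306 and 0.843 CPM in control 1, 2 and 3. MFAP2, another microfibril protein, rose as well, at no more than 1.60 CPM in any library. Elastin itself (ELN) had at most 0.496 CPM and was not tested.

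Targets of the low oxygen response, listed because P4HA1, P4HA2, PLOD2 and LOX are among such targets, did not pass in edgeR. Of 13 tested, 0 were called in either direction and the median log2 fold change was 0.35. DESeq2 called 2 higher and 3 lower (14.9% and 12.6% over all genes). LDHA, a glycolytic enzyme, had 431, 434 and 795 CPM in heat 1, 2 and 3, against 1148, 1782 and 1835 CPM in control 1, 2 and 3, so every heat library lay below every control (edgeR adjusted p = 0.0622). PGK1, another glycolytic enzyme, had 320, 327 and 573 CPM in heat 1, 2 and 3, against 336, 860 and 782 CPM in control 1, 2 and 3. LDHA and PGK1 are named as the most abundant of the list and do not stand for it, as 9 of the 13 had a positive fold change. Every heat library lay above every control for 3 of the 13 and below for 2. Over all tested genes these shares were 20.9% and 16.8%.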

How the data were processed

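Per the submitters' processing notes, FastQC 0.11.4, Trim Galore, STAR and the build Sscrofa11.1 were used. No counting tool, strand setting or annotation release is given in the sources used here. For 6 libraries the authors deposited raw read counts per Ensembl gene, and a normalized signal, whose values for 13298 genes equal counts divided by 1 factor per library. Of its values, 100% gave whole reads (tolerance 1e-06). LOXL1 is not in the normalized table.

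Heat was compared with control by edgeR 4.0.16 (R 4.3.3) on the deposited counts, with the quasi-likelihood F test, TMM factors, robust dispersions and filterByExpr (minimum count 10), which kept 14242 genes. The Benjamini-Hochberg adjustment ran over all of these, with calls below 0.05. The SE was taken as the size of the log2 fold change over the square root of F, and 95% intervals use the t quantile of the test's degrees of freedom. Log2 CPM used a prior count of 2. Ratios were tested by exact permutation over samples. Symbols came from the reference table and coordinates from RefSeq. Gene lengths per transcript were not used here, so levels are compared between libraries only.

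Members and lists were chosen with earlier results of these data known. Named genes are the 10 members, up to 3 called genes per other list by absolute log2 fold change or its 2 most abundant genes, the 5 genes most like SERPINH1, COL1A1 and COL1A2. P4HB, FKBP10, PPIB, ADAMTS3, PDIA4, SDF2L1, HSP90AA1, DNAJA4, ELN, ZNHIT1, the ratios within enzyme families and the cell type markers named were chosen after their values were seen. MIA2, BNIP3, THY1, VWF and KRT19 matched no symbol. Of 8 granulosa markers and 1 endothelial marker tested, none was called by edgeR, and DESeq2 called 1 granulosa marker higher (14.9% over all genes). DESeq2 1.42.0 and limma 3.58.1 served as alternatives. The fits without heat 3 and control 1, with near-identical libraries summed, on recovered reads, and of DESeq2 without each library were added after seeing the data.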

Additional observations from a re-analysis of the deposited data

How the results depend on the processing

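SERPINH1 kept its positive direction in every alternative run. It missed the threshold with DESeq2 size factors in edgeR (log2 fold change 3.43), with a filter of 10 CPM in 3 libraries (3.66), at an adjusted p below 0.01 (3.47) and with the near-identical libraries summed (2.81). Leaving out 1 library gave 3.00 to 4.69 over edgeR and DESeq2.

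The number of the 10 genes called higher was 0 with DESeq2 size factors in edgeR, the 10 CPM filter, the stricter p and the summed libraries, 2 with limma-voom and with limma on the normalized table at pseudocounts of 1 and 0.5, 3 with library totals only, no filter and DESeq2, and 8 without heat 3 and control 1. Leaving out 1 library gave 0 to 4, and 1 gene was called lower without heat 3 and control 1. Over all genes, 1561 were called with DESeq2 size factors in edgeR (822 higher), 1999 with library totals only (1583 higher) and 2457 without a filter (1607 higher). The 10 CPM filter gave 928 (532 higher), DESeq2 3910 (2118 higher), and the fit without heat 3 and control 1 12142 (6285 higher). An adjusted p below 0.01 gave 10, the summed libraries 2, recovered reads 1631, and leaving out 1 library 0 to 6857. Totals over all genes for the limma fits are not given here. The count of 0 came without control 2 or control 3, where 3165 and 3303 genes had an unadjusted p under 0.05. Without a scaling factor the median log2 fold change of all genes was 0.17 in place of 0.05.

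The sign turned for LOX with the summed libraries (-0.36), and leaving out 1 library gave -0.30 to 0.79. P4HA1 was at 0.24 and PLOD2 at 0.45 without heat 3 and control 1, and leaving out 1 library gave -0.44 to 0.094 and -0.56 to 0.19. Those positive values came without heat 3 for P4HA1 and without control 1 for PLOD2. The other genes and all 5 ratios kept their sign in every alternative run, and the cause of these shifts was not tested. With the replicate number as a block, 3 of the 10 genes, 9 of 12 collagen chains, 14 of 26 other maturation genes and 3404 of all genes were called. Deviations of same-numbered samples from their group means correlated at 0.299, -0.232 and 0.223, and heat 2 correlated best with control 1 (0.226). Because heat 3 and control 1 stood apart in their groups, these values cannot decide whether same-numbered samples share an animal or culture. Depth limits LOXL1, which had 7 to 30 reads.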
